A study of Mus musculus with 6 samples.

Results

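The 10 genes described here encode subunits of condensin and cohesin, the ring-shaped protein complexes that fold chromosomes and hold sister chromatids together. They were chosen by name from a table of 32285 genes: Smc2 and Smc4, shared by both condensins, Ncapd2, Ncapg and Ncaph of condensin I, Ncapd3 and Ncapg2 of condensin II, and Smc1a, Smc3 and Rad21 of cohesin. All 10 were found once in the table, and all 10 were expressed above the minimum for testing, a mean of 10 normalised reads. Bulk RNA sequencing gave their transcript levels in cells of the neocortex, taken from wild-type mice at embryonic stage E10.5 and cultured. In the GSK group (3 libraries) the cells were kept for about 24 h with GSK2837808A, an inhibitor of lactate dehydrogenase, the enzyme that interconverts pyruvate and lactate. The labels give its concentration as 100 mM, which was not verified. In the DMSO group (3 libraries) the cells received an equal volume of the solvent. After the culture, about 1000 live cells with CD133 (encoded by Prom1) on their surface were sorted for each library, and libraries were made with Smart-seq2, which copies polyadenylated RNA. The labels call the cells radial glial progenitors, the dividing stem cells of the early cortex. Whether each replicate is a culture or an animal of its own is not stated, so the p-values reflect just the spread among these libraries, which may be technical.

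Each complex is built on a pair of SMC proteins, long coiled-coil ATPases that join at a hinge, and on a kleisin subunit that closes the ring between their heads. In condensin the pair is SMC2 and SMC4. Condensin I adds the kleisin NCAPH and the HEAT-repeat proteins NCAPD2 and NCAPG, and condensin II adds NCAPH2, NCAPD3 and NCAPG2. Condensin II is nuclear throughout the cell cycle and begins chromosome compaction in prophase, whereas condensin I reaches the chromosomes after the nuclear envelope breaks down. In cohesin the pair is SMC1A and SMC3, the kleisin is RAD21, and STAG1 or STAG2 binds to it. Cohesin holds sister chromatids from S phase to anaphase, and in interphase it extrudes the chromatin loops that CTCF delimits, in non-dividing cells too.

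The GSK libraries held 7187089 to 10224348 reads and the DMSO libraries 7837721 to 10051625, as recovered from the normalised values. Prom1, the gene of the sort marker, had 502 to 693 normalised reads in GSK and 1099 to 1226 in DMSO libraries. Markers were counted as lower or higher at a limma adjusted p below 0.05, the test described below. Over all genes tested it called 19.1% lower and 17.0% higher. Of 10 radial glial markers 8 were lower and none higher, with a summed level of 10942 to 13568 in GSK and 20447 to 21089 in DMSO libraries. All 10 markers of dividing cells were lower, their sum being 6481 to 7416 in GSK against 18499 to 19622 in DMSO libraries. Of 8 tested erythroid markers 7 were higher, their summed level being 183780 to 273997 in GSK and 2391 to 20598 in DMSO libraries. Of 7 microglial markers 4 were higher, with sums of 486 to 1023 in GSK and 67.9 to 297 in DMSO libraries. Neuronal markers summed to 19281 to 23926 in GSK and 6466 to 13141 in DMSO libraries, and 3 of 6 were higher and 1 lower. Intermediate progenitor markers summed to 1425 to 2033 in GSK and 659 to 979 in DMSO libraries, with 4 of 5 higher. The summed level of mesenchymal genes, made up mostly by 3 collagen genes, was 16209 to 25515 in GSK and 26384 to 33254 in DMSO libraries, with 2 of 6 lower, while the 5 endothelial genes summed to 32.9 to 56.9 in GSK and 38.2 to 57.6 in DMSO libraries. The part that these differences in marker levels had in the results below was not tested. In bulk samples, fewer dividing cells and less RNA per cell cannot be told apart.

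The comparison asks which subunit transcripts differ when lactate dehydrogenase is inhibited. Every condensin member fell, with log2 fold changes of -0.79 to -1.60, and cohesin members had log2 fold changes of -0.27 to -0.60. Of the 10 members 9 fell in GSK libraries, Smc3 did not pass the test, and none rose (limma on log2(value + 1), Benjamini-Hochberg adjusted p below 0.05 over 15073 genes; edgeR and DESeq2 gave the same counts, and 0 members rose at an unadjusted p below 0.05 by any of these tools). Over all genes tested, limma called 19.1% lower and 17.0% higher, edgeR 19.9% and 16.6%, and DESeq2 18.1% and 15.9%. In all 10 members the 3 GSK values lay below the 3 DMSO values, as they did in 24.4% of all genes tested, while in 22.8% they lay above. The median log2 fold change was -0.88 over the members and 0.01 over all genes tested.

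**Figure D1:**
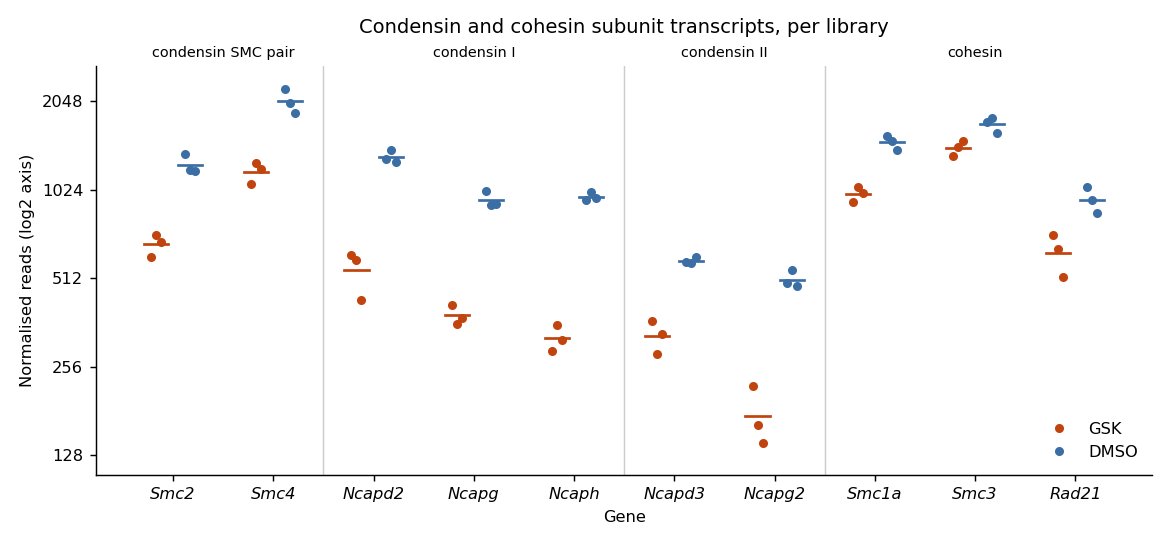
Normalised reads (log2 axis) of each member in the 3 GSK and the 3 DMSO libraries, grouped by complex. Points are libraries and bars are group means; GSK points lie below DMSO points for all 10 genes, with the narrowest gap for Smc3.

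The 2 genes of the condensin SMC pair, which serve both condensins, fell in parallel. Smc2 (chromosome 4, 52439243 to 52488260, GRCm38) had 607, 719 and 678 normalised reads in GSK libraries, against 1350.1, 1194 and 1189 in DMSO libraries. Its highest GSK value was thus well below its lowest DMSO value, and the log2 fold change was -0.90 ± 0.13 (SE; limma adjusted p = 1.38e-05). Smc4 (chromosome 3, 69004738 to 69034623) had 1067, 1262 and 1203 normalised reads in GSK and 2246, 2014 and 1865 in DMSO libraries. GSK replicate 1 was the lowest and DMSO replicate 1 the highest library for both genes. The log2 fold change of Smc4 was -0.79 ± 0.13 (SE; limma adjusted p = 7.91e-05).

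Condensin I genes fell further than the SMC pair. Ncaph, which encodes the kleisin of condensin I (chromosome 2, 127103809 to 127133954), had 289, 354 and 316 normalised reads in GSK libraries, against 946, 1002 and 960.0 in DMSO libraries. Its GSK mean was 33.0% of its DMSO mean, the lowest share of any member. The log2 fold change was -1.60 ± 0.13 (SE; limma adjusted p = 9.2e-09), and 2.49% of all genes tested had a lower one. Ncapd2 encodes a HEAT-repeat subunit (chromosome 6, 125168007 to 125191701) and had 616, 592 and 433 normalised reads in GSK and 1297, 1399.65 and 1275 in DMSO libraries. GSK replicate 3 was the lowest for this gene. The difference was larger than that spread, with a log2 fold change of -1.29 ± 0.14 (SE; limma adjusted p = 5.15e-07). Ncapg, the other HEAT-repeat subunit gene (chromosome 5, 45669919 to 45700546), had 416, 357 and 375 normalised reads in GSK and 1009, 908 and 915 in DMSO libraries. The replicates lay close together in both groups, and the log2 fold change was -1.30 ± 0.13 (SE; limma adjusted p = 1.2e-07). Reads could not be told apart by strand, and 944 exon bases of Ncapg overlap Lcorl on the opposite strand, while 472 exon bases of Ncapd2 overlap the small RNA gene Scarna10 and Gm28967.

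The subunit genes of condensin II went down by unequal amounts. Ncapg2 (chromosome 12, 116405402 to 116463731) had 219.6, 163 and 141 normalised reads in GSK libraries and 493, 545 and 482 in DMSO libraries. Its GSK mean was 34.4% of its DMSO mean, with a log2 fold change of -1.56 ± 0.16 (SE; limma adjusted p = 2.39e-07). Ncapd3 (chromosome 9, 27030175 to 27095315) had 365, 283 and 330.0 normalised reads in GSK and 582, 575 and 604 in DMSO libraries, a GSK mean of 55.6% of the DMSO mean. The log2 fold change of Ncapd3 was -0.85 ± 0.14 (SE; limma adjusted p = 5.42e-05). The kleisin gene of condensin II, Ncaph2, is no member of the chosen set but completes the complex (chromosome 15, 89355719 to 89372826). It had 954, 984 and 1151 normalised reads in GSK and 1325, 1384 and 1348 in DMSO libraries. The groups did not overlap, and the log2 fold change was -0.40 ± 0.13 (SE; limma adjusted p = 0.0175). The Ncaph2 call was lost without GSK replicate 2 (limma adjusted p = 0.097), DMSO replicate 1 (0.0503) or DMSO replicate 2 (0.0775), and 1364 of its exon bases overlap Sco2 and Tymp on the opposite strand.

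Cohesin genes differed less. Smc1a, on the X chromosome (152016428 to 152062694), had 926, 1041 and 993 normalised reads in GSK libraries, against 1560.4, 1494 and 1393 in DMSO libraries. The groups were separate, with a log2 fold change of -0.59 ± 0.12 (SE; limma adjusted p = 0.000934). Rad21, the kleisin gene (chromosome 15, 51962240 to 51991747), had 716, 643 and 518 normalised reads in GSK and 1043, 945 and 849 in DMSO libraries. Both groups were spread more widely than for Smc1a, and the log2 fold change was -0.60 ± 0.14 (SE; limma adjusted p = 0.00207). Smc3 (chromosome 19, 53600398 to 53645833) had 1335, 1432 and 1492 normalised reads in GSK libraries and 1737, 1794 and 1599 in DMSO libraries. The GSK mean of Smc3 was 83.0% of the DMSO mean, the highest share of any member. Its log2 fold change was -0.27 ± 0.13 (SE) and did not pass (limma adjusted p = 0.102). Smc3 was called lower with equal library totals (limma adjusted p = 0.0198), with totals that leave out globin and ribosomal RNA genes (0.0358) and with array weights (0.0164); over all 17 alternatives its adjusted p ran from 0.0164 to 0.298. Of all genes tested, 29.8% had a lower log2 fold change than Smc3.

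**Figure D2:**
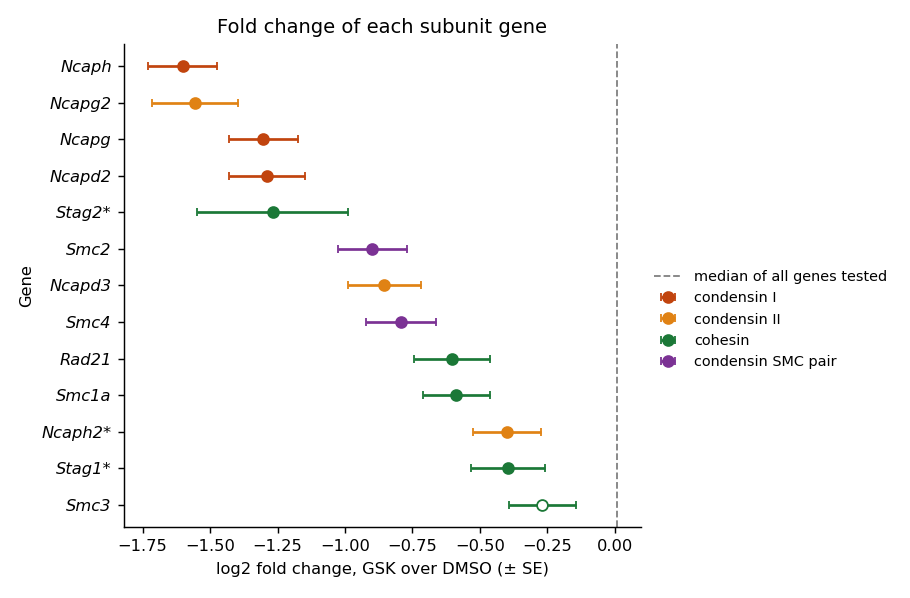
The log2 fold change of GSK over DMSO with its standard error for the 10 members and for Ncaph2, Stag1 and Stag2 (starred), coloured by complex; filled points passed the test and the dashed line is the median of all genes tested. The 7 condensin members lie between -1.60 and -0.79, to the left of the 3 cohesin members between -0.60 and -0.27, and Stag2 lies among the condensin genes.

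STAG proteins bind RAD21 and complete cohesin, and their genes moved by different amounts. Stag2 (chromosome X, 42149317 to 42277185) had 655, 314 and 303 normalised reads in GSK libraries and 933, 1032 and 909.8 in DMSO libraries. GSK replicate 1 stood far above the other GSK libraries, though still below every DMSO library. The log2 fold change of Stag2 was -1.27 ± 0.28 (SE; limma adjusted p = 0.00921), and -1.63 without GSK replicate 1. Stag1 (chromosome 9, 100597798 to 100959375) had 480.2, 418 and 362 normalised reads in GSK and 525, 554 and 569 in DMSO libraries. Its log2 fold change was -0.39 ± 0.14 (SE; limma adjusted p = 0.0285), a call that was lost without the filter on low values (adjusted p = 0.051) and without any single library other than GSK replicate 1, with adjusted p values of up to 0.117. The meiotic subunit genes Smc1b, Rad21l and Rec8 were near 0, with at most 20.4 normalised reads in any library, and were not tested. Stag3, also known for meiosis, had 44.6 to 56.9 normalised reads in GSK and 36.1 to 53.0 in DMSO libraries and did not pass (log2 fold change 0.17, limma adjusted p = 0.612).

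Averaged over the genes of a complex in each library, on the log2(value + 1) scale, condensin I stood at 8.72, 8.72 and 8.54 in GSK and at 10.07, 10.08 and 10.02 in DMSO libraries, a difference of -1.40. For the 2 condensin II members the difference of such means was -1.20, for the SMC pair -0.85 and for cohesin -0.49. The condensin and cohesin fold changes did not overlap, the condensin gene nearest to cohesin being Smc4 and the cohesin gene nearest to condensin Rad21. Outside the chosen genes, Ncaph2 of condensin II had a fold change within the cohesin range and Stag2 of cohesin one within the condensin range. These averages are descriptions of the chosen genes and carry no test.

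Ratios between 2 genes within a library, taken as differences of log2(value + 1), depend on how libraries were scaled only through the added 1. They were compared for 8 pairs by two-sided exact permutation tests, for which 0.1 is the smallest p that 3 against 3 allows. In 7 of the 8 pairs the groups did not overlap and the exact p was 0.1, or 0.114 adjusted over the pairs, so no pair could reach 0.05. The share of other gene pairs without overlap was not counted. Each difference equals that between the log2 fold changes of the 2 genes given above, so the pairs are no separate result. The largest difference was between the kleisin genes of the condensins. The log2 ratio of reads of Ncaph over Ncaph2 was -1.72, -1.47 and -1.86 in GSK libraries, against -0.48, -0.47 and -0.49 in DMSO libraries, a difference of -1.20. The part that the exon overlap of Ncaph2 with Sco2 and Tymp had in this ratio was not tested. Within condensin I and II the other counterparts did not share one direction. Ncapd2 over Ncapd3 had log2 ratios of 0.75, 1.06 and 0.39 in GSK and 1.15, 1.28 and 1.08 in DMSO libraries, a difference of -0.44 that was -0.26 without GSK replicate 3. Ncapg over Ncapg2 had 0.92, 1.13 and 1.40 in GSK and 1.03, 0.74 and 0.92 in DMSO libraries, and these groups overlapped (difference 0.25, exact permutation p = 0.3; 0.13 without GSK replicate 3).

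Condensin genes were lower relative to cohesin genes in each of the 3 pairs that set them side by side. These pairs include neither Ncaph2 nor Stag2, whose log2 fold changes of -0.40 and -1.27 lay within the range of the other complex. Ncaph over Rad21, the kleisins, had log2 ratios of -1.31, -0.86 and -0.71 in GSK libraries and -0.14, 0.08 and 0.18 in DMSO libraries, a difference of -0.999. Smc2 over Smc3 had -1.14, -0.99 and -1.14 in GSK and -0.36, -0.59 and -0.43 in DMSO libraries, a difference of -0.63. Smc4 over Smc1a differed by -0.21. Between SMC partners, Smc2 over Smc4 differed by -0.11, averaging -0.82 ± 0.01 in GSK and -0.71 ± 0.06 in DMSO libraries (SD, n = 3 each). Smc1a over Smc3 averaged -0.52 ± 0.06 in GSK and -0.21 ± 0.05 in DMSO libraries (SD, n = 3 each), a difference of -0.32 for genes whose proteins pair one to one.

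**Figure D3:**
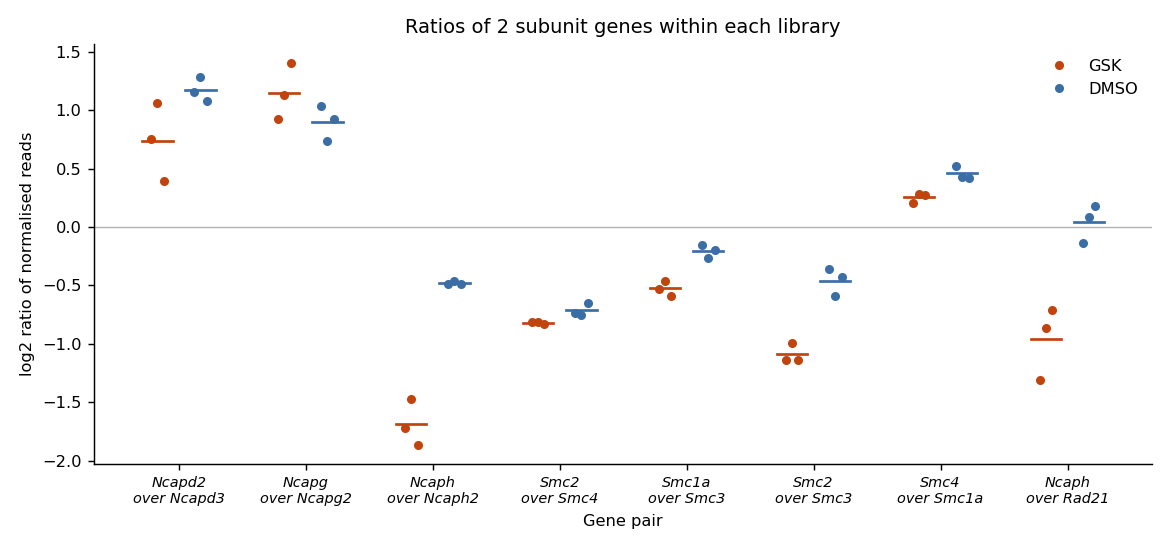
The log2 ratio of normalised reads of 2 genes within each library for 8 pairs, with points for libraries and bars for group means. GSK points lie below DMSO points in 7 pairs, farthest for Ncaph over Ncaph2, and the groups overlap for Ncapg over Ncapg2.

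Levels of different genes were compared as normalised reads per kb of the longest principal protein-coding transcript. In GSK libraries Ncaph2 stood highest at 312 ± 32.3 reads per kb, before Smc3 at 293 ± 16.4 and Smc4 at 273 ± 23.2 (SD, n = 3). Reads counted for Ncaph2 may include some of Sco2 and Tymp, which overlap 1364 of its exon bases on the opposite strand. The order in DMSO libraries was another, with Smc4 at 473 ± 44.4 reads per kb, Ncaph2 at 409.9 ± 9.09, Ncaph at 359.7 ± 10.7 and Smc3 at 353 ± 20.6 (SD, n = 3). Neighbours in this GSK trio overlapped in range, and so did Ncaph and Smc3 in DMSO libraries. Ncaph stood 7th of 13 genes in GSK libraries, at 119 ± 12.1 reads per kb, and 3rd in DMSO libraries. In GSK libraries its range overlapped those of Smc2 and Ncapd2, its neighbours in the order. The condensin II genes Ncapg2 and Ncapd3 were low in both groups, at 37.2 ± 8.66 and 59.3 ± 7.51 reads per kb in GSK libraries and 108 ± 7.13 and 107 ± 2.77 in DMSO libraries. Both stood below Ncaph2 of the same complex in every library. With the length of all annotated exons instead, Ncaph stood 8th in GSK and 6th in DMSO libraries. On that length Smc3 was highest in GSK libraries, ahead of Ncaph2 with overlapping ranges, and Smc4 was again highest in DMSO libraries.

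**Figure D4:**
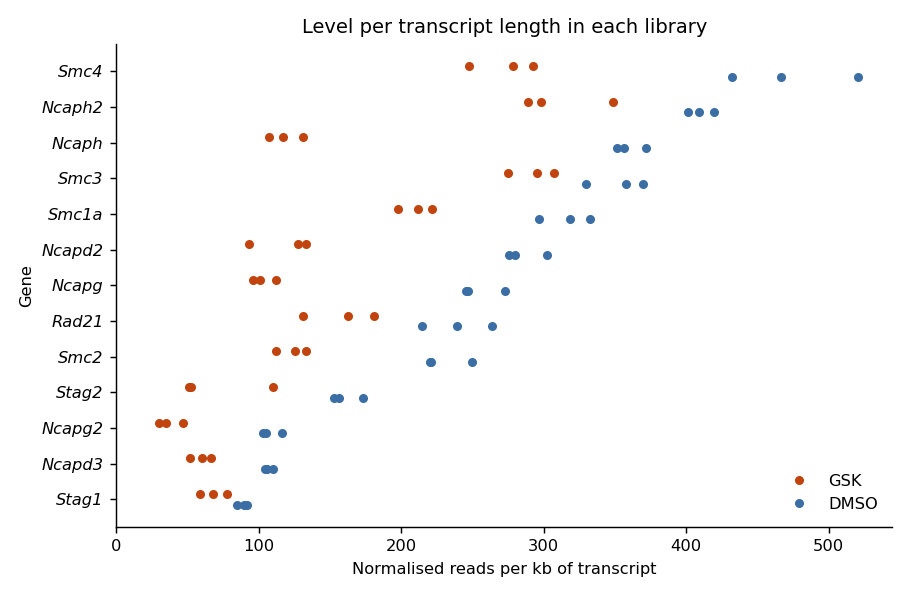
Normalised reads per kb of transcript for the 10 members and Ncaph2, Stag1 and Stag2, ordered by their DMSO mean, with 3 points for each group. Ncaph is among the 3 highest genes in DMSO libraries and among the middle ones in GSK libraries, while Smc3 and Ncaph2 stay high in both.

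Promoters are shown because many genes of the G2 and M phases carry a short element called CHR, the letters TTTGAA, to which the MuvB complex binds, often with a CCAAT box upstream, while E2F factors bind sites such as TTTNNCGC in genes of the G1 to S transition. RefSeq start sites on GRCm38.p6 were at hand for 8 members: Smc2, Ncapd2, Ncapg, Ncaph, Ncapd3, Ncapg2, Smc1a and Smc3. TTTGAA on either strand lay within the 250 bases before a start in 5 of these 8 genes, or in 4 without the second, internal start of Ncapd3, whose downstream bases were found in no GENCODE transcript of the gene, and in 16.0% of 32817 promoters of that length. CCAAT was present in 4 of the 8 (Ncapd2, Ncapg, Smc1a and Smc2) and in 33.8% of promoters, and TTTNNCGC in 2 (Ncapd2 and Ncapg2) and in 4.28% of promoters. None of these matches overlapped another in the members. Before its main start Ncapd3 held no TTTGAA. A match is a run of letters and was not tested as a binding site. The 30 bases that hold the element in the other 4 genes follow, 5′ to 3′ on the gene's strand, with the match in capitals (TTCAAA is the same element on the other strand).
Ncapg (chr5:45669883-45669912, plus strand): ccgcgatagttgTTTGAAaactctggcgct
Ncapg2 (chr12:116405406-116405435, plus strand): tacgcgggtgtgTTTGAAtctggtccgagc
Ncapd2 (chr6:125191692-125191721, minus strand): cagccgttgaggTTTGAAcagggaattgcg
Smc2 (chr4:52439064-52439093, plus strand): tcgctttccatgTTCAAAacggtatagtct

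Its distance to the start depends on the annotation. The element ended 25 bases before the RefSeq start in Ncapg, 13 bases before it in Ncapg2, 118 bases before it in Ncapd2 and 140 bases before it in Smc2. Against the GENCODE start it ended 19 bases before in Ncapg, 3 bases before in Ncapd2 and 162 bases before in Smc2, and in Ncapg2 it lay inside the gene. For contrast, the 150 bases before the start are given for Ncaph, which had the largest fall, and for the cohesin genes Smc3 and Smc1a, with any match to the 3 motifs in capitals. Ncaph and Smc3 held none of the 3 in the whole 250 bases. Smc1a held a CCAAT box in reverse (ATTGG) 15 bases before its start.
Ncaph (chr2:127133955-127134104, minus strand): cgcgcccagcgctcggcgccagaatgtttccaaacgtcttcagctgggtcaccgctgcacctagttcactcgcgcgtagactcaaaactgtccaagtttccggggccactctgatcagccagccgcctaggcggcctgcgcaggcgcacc
Smc3 (chr19:53600246-53600395, plus strand): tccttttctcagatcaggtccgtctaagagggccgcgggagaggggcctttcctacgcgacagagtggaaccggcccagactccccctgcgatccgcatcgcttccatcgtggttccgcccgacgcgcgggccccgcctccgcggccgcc
Smc1a (chrX:152016278-152016427, plus strand): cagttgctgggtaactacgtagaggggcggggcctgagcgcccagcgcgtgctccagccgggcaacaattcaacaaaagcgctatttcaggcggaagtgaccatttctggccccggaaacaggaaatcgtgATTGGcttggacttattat

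Around cohesin act proteins that load it, acetylate it, protect it, cut it or release it. Of 14 such regulator genes 7 fell and none rose (0 at an unadjusted p below 0.05 by limma, edgeR or DESeq2), with a median log2 fold change of -0.45. Of all genes tested, limma called 19.1% lower. Espl1 encodes separase, the protease that cuts RAD21 at anaphase, and had 196, 132 and 109 normalised reads in GSK libraries, against 521, 683 and 631 in DMSO libraries. This was the largest change in the list, a log2 fold change of -2.09 ± 0.18 (SE; limma adjusted p = 5.13e-08). Cdca5 (sororin, which locks cohesin on replicated chromatids) had a log2 fold change of -1.52, and Sgo2a and Sgo1, which encode the shugoshins that shield centromeric cohesin, of -1.37 and -1.13. On the opposite strand, Kctd18 overlaps 2455 exon bases of Sgo2a. Esco2, the acetyltransferase gene of S phase, fell by 1.34 on the log2 scale, while Esco1, which encodes the acetyltransferase active throughout interphase, had a log2 fold change of 0.06 and did not pass (limma adjusted p = 0.784). Esco2 had 86.5, 104 and 129 normalised reads in GSK and 297, 284 and 228 in DMSO libraries. Esco1 had 223, 193 and 181 in GSK and 210.3, 179.6 and 181 in DMSO libraries, which overlapped.

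The loader genes Nipbl and Mau2 and the release factor gene Wapl had log2 fold changes of 0.15, 0.08 and 0.16 without passing (limma adjusted p = 0.377, 0.665 and 0.386). Nipbl had 1031, 1144 and 1141 normalised reads in GSK and 1077, 1027 and 888 in DMSO libraries. The groups overlapped for each of these 3 genes. Among the PDS5 proteins, which regulate cohesin release and acetylation, Pds5b fell (log2 fold change -0.53, limma adjusted p = 0.00297) and Pds5a did not pass (-0.27, limma adjusted p = 0.136). Ctcf, whose protein sets the ends of cohesin loops, had 379, 425 and 428 normalised reads in GSK libraries and 694, 626 and 595 in DMSO libraries. Its log2 fold change was -0.63 (limma adjusted p = 0.000716), and 484 of its exon bases overlap Agrp and Gm5914 on the opposite strand. Hdac8, which encodes the SMC3 deacetylase, and Pttg1, which encodes the separase inhibitor securin, did not pass (log2 fold changes 0.14 and -0.37).

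Of 9 genes around condensin, which include its mitotic kinases, 8 fell and none rose (0 at an unadjusted p below 0.05 by limma, edgeR or DESeq2), with a median log2 fold change of -1.47. Ncaph2, described above, is among the 8, and 7 were called without GSK replicate 2, DMSO replicate 1 or DMSO replicate 2. Of all genes tested, limma called 19.1% lower. Top2a, Mki67, Aurkb, Plk1 and Cdk1 are also among the markers of dividing cells counted above. Top2a, the topoisomerase that works with condensin to disentangle chromatids, had 1432, 1519.7 and 1139.6 normalised reads in GSK libraries, against 5323, 5144 and 4778 in DMSO libraries. Its log2 fold change was -1.91 ± 0.14 (SE; limma adjusted p = 3.02e-09), larger than that of any member. Top2b, the paralogue used by non-dividing cells, had 962, 944 and 822 in GSK and 972, 837 and 778 in DMSO libraries and did not pass (log2 fold change 0.08, limma adjusted p = 0.672). Aurkb and Plk1, kinase genes of mitosis, and Cdk1 had log2 fold changes of -1.72, -1.70 and -1.47. Kif4, the chromosome-bound kinesin that partners condensin I, fell by 1.51 on the log2 scale, and Mki67, which coats mitotic chromosomes, by 1.25. Genes on the opposite strand overlap 832 exon bases of Kif4 (Pdzd11) and 1793 of Top2b (Rarb). Mcph1 encodes microcephalin, an inhibitor of condensin II in interphase, and had 206, 200.3 and 158 normalised reads in GSK and 373, 382 and 433 in DMSO libraries. Its log2 fold change was -1.08 (limma adjusted p = 1.16e-05).

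SMC5 and SMC6 form a further SMC complex, which acts in DNA repair and replication, and SMCHD1 is an SMC-related protein of the inactive X chromosome. Of these 10 genes 5 fell and none rose (0 at an unadjusted p below 0.05 by limma, edgeR or DESeq2), with a median log2 fold change of -0.34. The log2 fold changes of Smc5 and Smc6 were -0.51 and -0.36 (limma adjusted p = 0.00791 and 0.0281), and Smc6 lost its call with no filter on low values or without GSK replicate 2, DMSO replicate 1 or DMSO replicate 2, with adjusted p values of up to 0.119. Smchd1 had 522, 499.8 and 461 normalised reads in GSK and 818, 819.7 and 769 in DMSO libraries, a log2 fold change of -0.70. Slf1, which encodes a protein that binds the complex, and Nsmce4a, which encodes its kleisin, fell with log2 fold changes of -0.80 and -0.72, and Nsmce1 and Nsmce2 did not pass (0.07 and 0.03). Slf2 did not pass either (log2 fold change 0.15, limma adjusted p = 0.403). Its GSK values of 650, 686 and 646 normalised reads all lay above its DMSO values of 639, 638 and 521. In all, 22 of the 36 tested genes of the 4 lists fell, where limma called 19.1% of all genes tested lower.

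**Figure D5:**
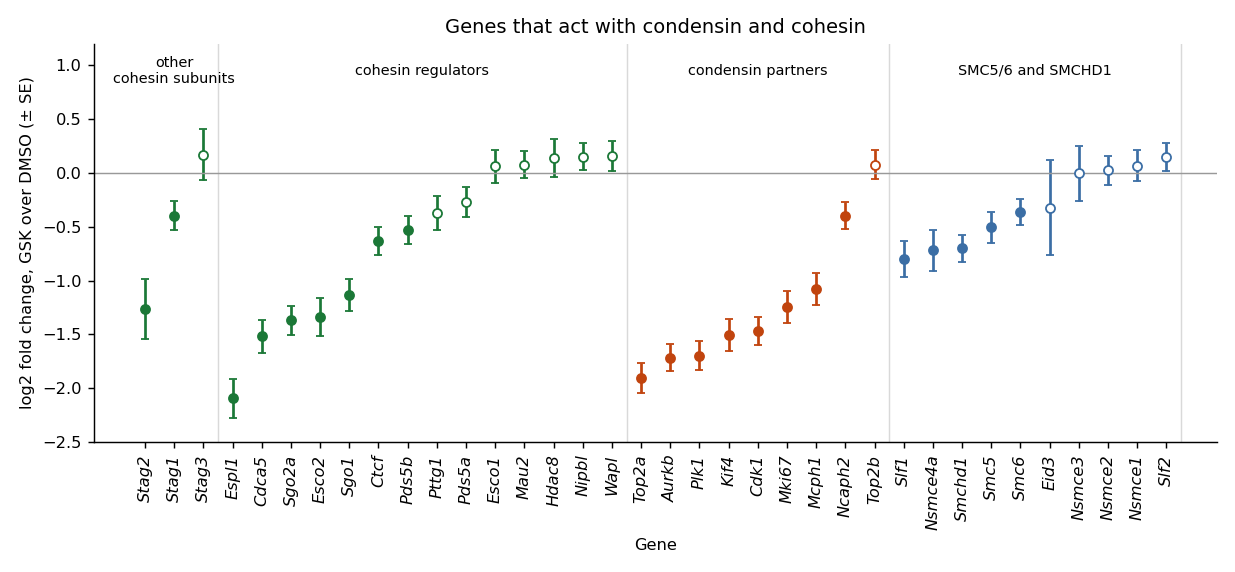
The log2 fold change of GSK over DMSO with its standard error for the 36 tested genes of the 4 lists around condensin and cohesin; filled points passed the test. The condensin partners reach -1.91 for Top2a and the cohesin regulators -2.09 for Espl1, while Nipbl, Mau2, Wapl, Esco1, Hdac8 and Top2b lie at or just above 0.

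Genes with the most similar profile over the 6 libraries were found as those with the smallest root mean square distance on the log2 scale, among 9559 other genes with a mean of at least 100 normalised reads and with each profile centred on its own mean. Nearest to the median condensin profile were Ska3, Irs1, Pfas, Mtbp and Suclg2, at distances of 0.055 to 0.060, where the median gene lay at 0.62. Nearest to the median cohesin profile were Fam102a, Pcnt, LTO1, Epb41l5 and Gmps, at 0.037 to 0.051, where the median gene lay at 0.33. The condensin members themselves lay 0.075 (Ncapg) to 0.25 (Smc4) from their median profile. The cohesin members lay 0.069 (Smc1a) to 0.14 (Smc3) from theirs. The named genes were picked as the closest of 9559, so their small distances cannot be set against those of the members.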

How the data were processed

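The deposited signal values are normalised read counts made by the authors, in a table of 118098 rows that repeats each gene's value on its transcript rows; 1 row per gene was kept. The submitters' processing notes name STAR, DESeq, GRCm38 and mm10 but no role or version; read counter, annotation and strand setting: not given in the sources used here. Dividing by a library's smallest nonzero value left 100% of its values whole within 0.01, and these whole reads served for count tests. Values as log2(value + 1) were fitted with limma 3.58.1 (R 4.3.3; variance priors trended and robust) for 15073 genes with a mean of at least 10, with group as the only term; it was tested on simulated data. Fold changes on that scale understate the change of low genes. The recovered reads were also tested with edgeR 4.0.16 and with DESeq2 1.42.0. Coordinates, exon overlaps and transcript lengths are those of GENCODE vM21 (GRCm38) for the same gene identifiers, and promoters from RefSeq on GRCm38.p6, matched by symbol. A comparison of protein sequences was planned and not run.

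The members and lists were chosen with earlier results of these data known. Named are all members, Ncaph2, Stag1, Stag2, Prom1, Mki67 and Top2a, and of each list up to 4 called genes by smallest p in each direction and up to 2 that did not pass; further list genes were named after their values were seen. The nearest genes in profile were named by distance. LTO1 is spelled as in the table.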

Additional observations from a re-analysis of the deposited data

How the results depend on the processing

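All 7 condensin members were called lower under each of the 17 alternatives, and so were Smc1a and Rad21. Cohesin had 2 genes called lower, or 3 where Smc3 passed. Fold changes of the condensin members stayed below those of the cohesin members under each alternative. Without GSK replicate 1 the nearest were -0.723 for condensin and -0.707 for cohesin. Ncaph2 and Stag2, not among the members, did not follow this split, with log2 fold changes of -0.40 and -1.27 in the main fit. The differences in pair ratios kept their sign under all 9 of their alternatives. Of 2 called genes among the other cohesin subunits, 1 was left with no filter on low values, and leaving out 1 library each gave 1 to 2. Over all genes, 2563 rose and 2883 fell, against 3963 and 3809 with array weights, and leaving out 1 library each gave 1748 to 3071 higher and 2246 to 3227 lower. Scaling moved the median of all genes by less than 0.1 on the log2 scale.

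With the replicate number as a block, 2662 genes rose and 2980 fell, and 7 condensin and 2 cohesin genes were called lower. Whether same-numbered libraries share more than a number is not stated. Deviations of same-numbered libraries from their group means had correlations across genes of 0.0131, -0.0236 and 0.0529, and not every library correlated best with its own number. With 3 libraries per group these correlations cannot settle it. For the pair ratios the block allows no exact p below 0.25. The replicate count of 3 per group limits the precision of all values.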
